A study of Mus musculus with 4 samples.

Results

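Spasmolytic polypeptide expressing metaplasia (SPEM) is the mucous lineage that appears in the gastric corpus when acid-secreting parietal cells are lost. Zymogenic chief cells and mucous neck cells are its known sources, and its cells carry the trefoil peptide TFF2, known as spasmolytic polypeptide, together with genes that are scarce in mature chief cells. The 9 genes described here, *Cd44*, *Wfdc2*, *Clu*, *Cftr*, *Dmbt1*, *Aqp5*, *Sox9*, *Mal2* and *Olfm4*, were taken by name as metaplasia markers from a table of 46095 gene rows, and all 9 passed the filter on low counts. None of them is found in SPEM alone, since *Clu*, *Cd44* and *Sox9* are also expressed in stroma, leukocytes or progenitor cells, and *Olfm4* marks intestinal crypts.

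Gastric RNA of 12-week-old C57BL/6 mice was sequenced, with 2 WT and 2 *Atp4b-cre; MycOE* samples analysed here. In the *c-Myc* transgenic mice, marked MYC-KI in the plots, Cre driven by the promoter of the proton pump gene *Atp4b* switches on a floxed human *c-Myc* cDNA in parietal cell lineages, and the WT controls are *Myc fl/fl* littermates, which carry the floxed transgene without Cre. The labels give the tissue as stomach and do not say which regions or layers were taken. Column totals lay between 30260305 and 41463647 counts. High *Xist* and low *Ddx3y* marked WT replicate 2 as female and the other 3 samples as male. The mouse *Myc* row had 31.6 and 27.2 normalized CPM (counts scaled to equal library totals, with the TMM factors of edgeR) in the WT samples, against 21.7 and 24.4 in the transgenic ones. Without a row for human *MYC* the table holds no direct check of the transgene.

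In the deposited table the transgenic counts do not stand beside the right names, which bears on all 9 genes. Gene names run alphabetically with case ignored, whereas the counts of both transgenic columns follow an order with capitals ahead of lower-case letters. The values of the 9 genes were therefore read after giving the transgenic counts, row by row, to the names in character-code order, with the WT columns left as they are. Each of the 9 genes changes place between these orders, by 2 to 397 rows. Over the 60 rows around each gene, with the gene itself left out, Pearson's r between the genotypes lay between -0.14 and 0.55 as deposited and between 0.957 and 0.994 after re-sorting. These correlations are across genes, which are not replicates. The counts deposited beside *Sox9* in the transgenic columns, 302 and 519, belong to *Steap3* after re-sorting, and those beside *Clu*, 76 and 55, to *Clstn3*. In the deposited order all 9 genes were called lower, beside 9158 of all 22083 tested genes called lower and 84.1% called in either direction. All values below are from the re-sorted table unless stated.

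**Figure D1:**
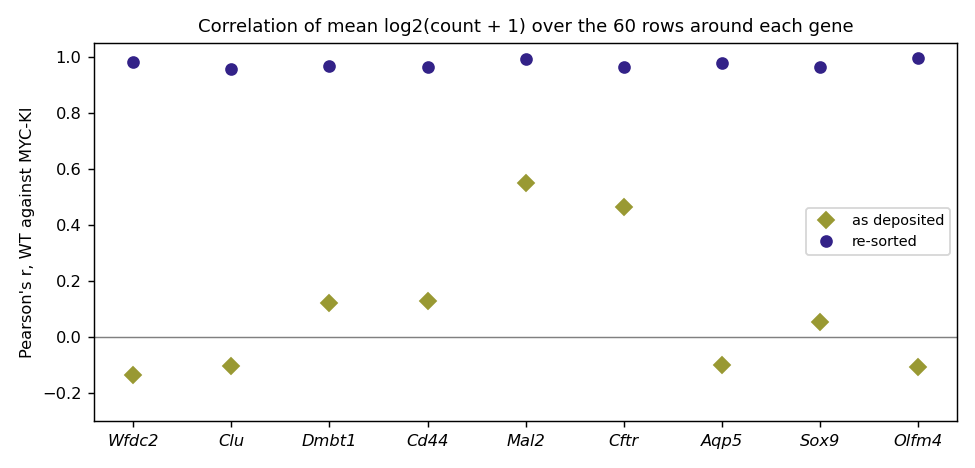
Pearson's r between the WT and the transgenic mean of log2(count + 1) over the 60 rows around each SPEM marker gene (x axis), for the deposited and the re-sorted table. All 9 re-sorted values lie at 0.957 or above, and no deposited value exceeds 0.55.

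Of the 9 markers, *Wfdc2*, *Clu* and *Dmbt1* rose in *c-Myc* transgenic mice, by 2.57, 2.44 and 2.93 times, and none fell. The test was edgeR's quasi-likelihood test over 17643 genes. A gene was called when its Benjamini-Hochberg adjusted p-value was under 0.05 and its log2 fold change was beyond 0.585 in size, a change of 1.5 times. Of all tested genes 5.65% were called higher, 5.08% lower and 10.7% in either direction. The labels name 2 samples per genotype and do not say more of their origin. The p-values set the genotype difference against the spread between these samples, which the fit moderates over all tested genes. The median log2 fold change was 0.54 over the 9 genes and 0.01 over all tested genes. Over the 9 genes it was 0.21 without transgenic replicate 1 and 1.01 without transgenic replicate 2. For *Wfdc2*, *Clu*, *Dmbt1*, *Cd44* and *Mal2* both transgenic samples lay above both WT samples, which held for 33.3% of all tested genes. In *Cftr*, *Aqp5*, *Sox9* and *Olfm4* the genotypes overlapped, as transgenic replicate 1 lay above both WT samples and transgenic replicate 2 did not. In RNA of bulk tissue, more cells of a kind and more RNA per cell cannot be told apart.

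**Figure D2:**
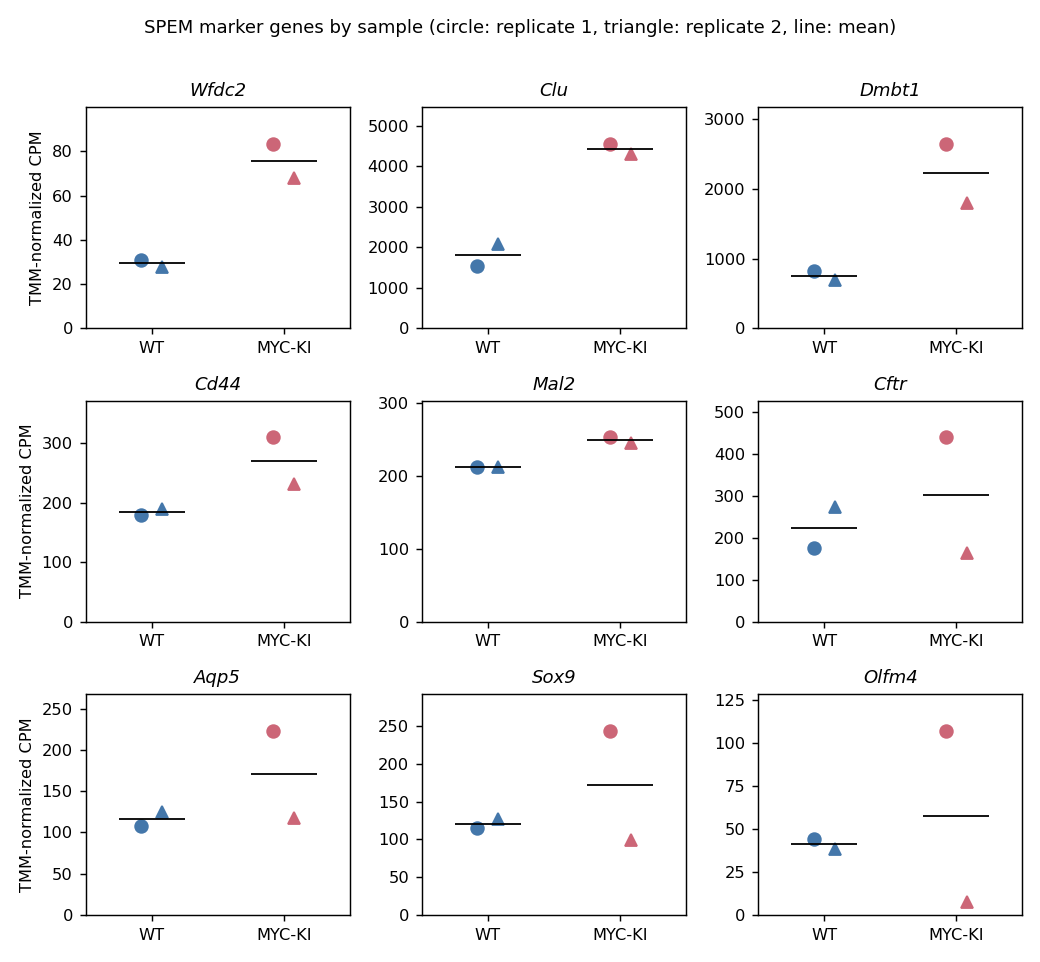
TMM-normalized CPM (y axis, from 0) of each SPEM marker gene in the 2 WT and 2 MYC-KI samples (x axis). Circles are replicate 1, triangles are replicate 2 and lines are means of 2. In the top row the genotypes are apart, and *Cftr*, *Aqp5*, *Sox9* and *Olfm4* show 1 high and 1 low transgenic sample.

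The 3 called genes encode secreted products. *Wfdc2* encodes HE4, a small secreted protein of the whey acidic protein family that is little expressed in the normal corpus. Its level was 30.99 and 27.7 normalized CPM in WT and 83.2 and 67.9 in transgenic mice, and the lowest transgenic value was above the highest WT value. The mean went from 29.4 ± 2.30 (SD, n = 2) to 75.5 ± 10.8 (SD, n = 2), which is 1.36 on the log2 scale (standard error 0.14, edgeR adjusted p = 0.0198). *Wfdc2* lies on the plus strand at chr2:164562413-164568510 (mm10, protein coding). Its promoter, taken from 250 bases before to 50 after the start site in RefSeq (GRCm38.p6), held the RBPJ letters GTGGGAA on the minus strand, at position -172 or -173 from its 2 RefSeq start sites. GENCODE M21 starts the gene further upstream, so the match lies inside the locus as given above. These letters, the core read by the Notch effector RBPJ, were found on either strand in 6.38% of 32851 promoter windows of this length. The stretch is shown because *Wfdc2* is the only called gene of the 9 with an entry in the promoter table, and the capitals mark the match as it reads on the plus strand.
Wfdc2, chr2:164562518-164562574, plus strand: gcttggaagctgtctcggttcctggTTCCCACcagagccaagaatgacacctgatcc

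*Clu*, which encodes the secreted chaperone clusterin, was the most abundant of the 9 genes. It had 1548 and 2074 normalized CPM in WT and 4544 and 4304 in transgenic mice. Both transgenic samples were far above WT and differed little from each other, while the WT samples were further apart. The difference was 1.29 on the log2 scale (standard error 0.18, edgeR adjusted p = 0.0290). Its locus is chr14:65968483-65981547 on the plus strand.

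*Dmbt1* encodes a large secreted scavenger receptor protein of mucosal surfaces and duct epithelia. Its level was 826 and 689 normalized CPM in WT and 2643 and 1802 in transgenic mice. The transgenic samples were both higher, replicate 1 more so than replicate 2. At 1.55 on the log2 scale (standard error 0.23, edgeR adjusted p = 0.0316), *Dmbt1* had the largest change of the 9 in the fit of all 4 samples, whereas *Clu* was larger without WT replicate 2 and *Olfm4*, in the other direction, without transgenic replicate 1. The gene, chr7:131032053-131121630 on the plus strand, shares its locus with *Fgfr2* on the other strand without an overlap of exons. *Fgfr2* was at 47.7 and 47.5 normalized CPM in WT and at 48.3 and 53.0 in transgenic mice.

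These 3 calls were also made by DESeq2, the tool of the study's methods, with adjusted p-values of 1.52e-11 for *Wfdc2*, 6.24e-10 for *Clu* and 9.15e-10 for *Dmbt1*, beside 8.23% of 18257 genes called higher and 17.7% called in either direction. They held when either transgenic sample was left out, with log2 fold changes of 1.21 and 1.503 for *Wfdc2*, 1.25 and 1.33 for *Clu*, and 1.25 and 1.80 for *Dmbt1*. Without WT replicate 1 or WT replicate 2, edgeR called 0 of all tested genes (0% higher and 0% lower). The log2 fold changes of *Wfdc2*, *Clu* and *Dmbt1* without a WT sample lay between 1.09 and 1.69. A fit of 3 samples takes the lone sample to vary like the other genotype. When the replicate number was a block in the fit of all 4 samples, edgeR called 114 of 17643 genes and 0 of the 9 markers.

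The membrane proteins *Cd44* and *Mal2* did not pass. *Cd44* encodes the hyaluronan receptor, whose variant isoform is used to stain SPEM. It had 179 and 190.1 normalized CPM in WT and 309.8 and 231 in transgenic mice, with both transgenic samples above WT. *Cd44* differed by 0.55 on the log2 scale (standard error 0.16, edgeR adjusted p = 0.0968), under the threshold on the fold as well. Scaled by library size in place of TMM, the weighted trimmed mean of edgeR, *Cd44* was called (0.77, edgeR adjusted p = 0.0409). That scaling moves the median of all tested genes from 0.01 to 0.23, and 12.9% of genes are then called higher and 4.19% lower. *Cd44* was also called without transgenic replicate 2 (0.75, edgeR adjusted p = 0.0246), and was at 0.33 without replicate 1. GENCODE M21 lists 9 transcripts of *Cd44* (chr2:102811141-102901665, minus strand), and a count per gene does not tell the variant isoform from the others.

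*Mal2*, a four-span membrane protein of apical transport, varied least of the 9 genes between replicates. It had 213 and 213 normalized CPM in WT and 253 and 246 in transgenic mice. The genotypes did not overlap, but the difference was 0.23 on the log2 scale (standard error 0.08, edgeR adjusted p = 0.120), and it ranged from 0.21 to 0.25 over the fits of 3 samples. *Mal2* lies at chr15:54571192-54602847 on the plus strand.

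**Figure D3:**
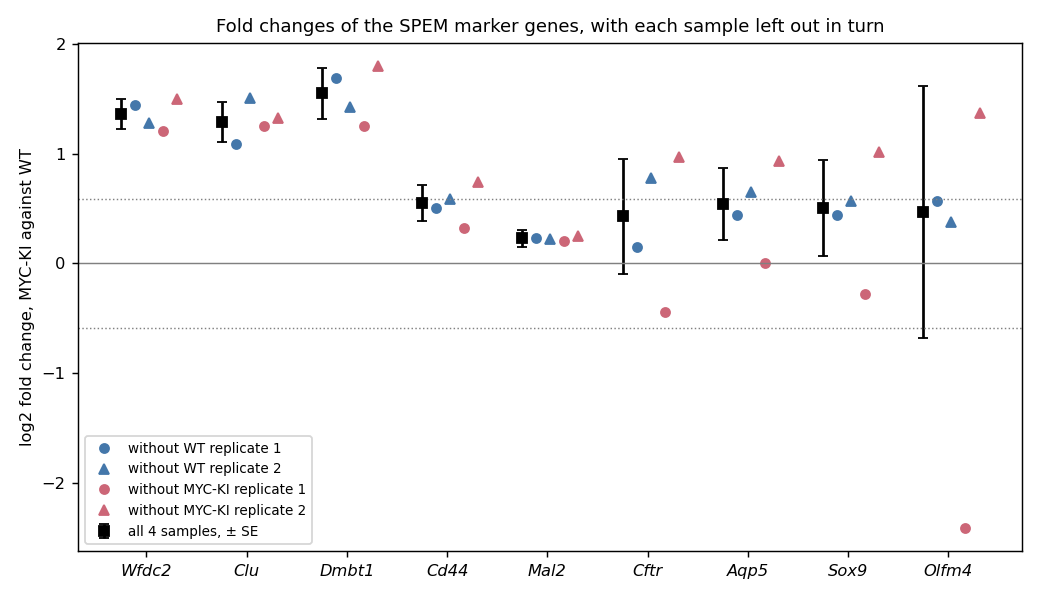
Log2 fold change of MYC-KI against WT (y axis) for each SPEM marker gene, with all 4 samples (black, ± standard error) and with 1 sample left out. Dotted lines are at 0.585 above and below 0. *Wfdc2*, *Clu* and *Dmbt1* stay above the line in every fit, and *Cftr*, *Sox9* and *Olfm4* lie below 0 without transgenic replicate 1.

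Ion and water channels differed between the transgenic samples. *Cftr* encodes the chloride and bicarbonate channel of duct and crypt epithelia. It had 176 and 273 normalized CPM in WT and 439.7 and 164 in transgenic mice, so that replicate 1 was the highest and replicate 2 the lowest of the 4 samples. The difference was 0.43 on the log2 scale (standard error 0.52, edgeR adjusted p = 0.612), and it went from 0.97 without transgenic replicate 2 to -0.45 without replicate 1. An antisense gene, *Gm15592*, overlaps exons of *Cftr* (chr6:18170687-18322768, plus strand) and was not among the tested genes.

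*Aqp5*, a water channel of gland cells that in mice is also known from the antral stem cell zone, had 108 and 125 normalized CPM in WT. Transgenic replicate 1 had 223 and replicate 2 had 117, which is between the WT values. *Aqp5* differed by 0.54 on the log2 scale (standard error 0.33, edgeR adjusted p = 0.317). Without transgenic replicate 2 it was called (0.94, edgeR adjusted p = 0.0245), and without replicate 1 it was 0.0069. The promoter of *Aqp5* (gene at chr15:99590782-99594829, plus strand) was the only one, among those of the 5 marker genes in the promoter table, that held the E-box CACGTG, the letters that MYC and MAX bind, at position -87 from the RefSeq start site, which is downstream of the GENCODE start, so that the match lies inside the locus given. Either strand reads the same there, and 7.15% of all promoter windows hold these letters. The stretch is shown for that match to the motif of the transgene product, with the match in capitals. A match of letters does not say that a factor binds.
Aqp5, chr15:99590916-99590971, plus strand: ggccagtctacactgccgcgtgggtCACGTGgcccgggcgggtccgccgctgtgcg

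Promoter windows from RefSeq were matched for 5 of the 9 genes (*Cd44*, *Wfdc2*, *Cftr*, *Aqp5* and *Olfm4*). None of their 6 windows held the TCF/LEF letters CTTTGAT, which 3.73% of all windows hold on either strand. Nothing about these factors follows from the absence of letters in a window.

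*Sox9* and *Olfm4*, genes of progenitor cells, also differed between the transgenic samples. *Sox9* encodes a transcription factor of gland progenitors and duct cells. It had 115 and 127 normalized CPM in WT and 244 and 99.5 in transgenic mice, with replicate 2 the lowest of all samples. Between genotypes *Sox9* differed by 0.51 on the log2 scale (standard error 0.44, edgeR adjusted p = 0.475). It was called without transgenic replicate 2 (1.01, edgeR adjusted p = 0.0172) and was -0.28 without replicate 1. Its locus is chr11:112782224-112787760 on the plus strand.

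*Olfm4* encodes a secreted glycoprotein of intestinal crypt stem cells and inflamed epithelia. It had 44.1 and 38.6 normalized CPM in WT, 107 in transgenic replicate 1 and 7.77 in replicate 2. The transgenic samples lay on opposite sides of WT, and the log2 fold change of 0.47 had a standard error of 1.15 (adjusted p = 0.809 from edgeR). Without transgenic replicate 2, *Olfm4* was called higher (1.37, edgeR adjusted p = 0.0138), and without replicate 1 it was called lower (-2.41, edgeR adjusted p = 0.0124). These values rest on 3638 and 347 counts in the transgenic samples, so counting error is small beside the gap. The lincRNA *Gm6999*, which shares exons with *Olfm4* (chr14:79984081-80023139, plus strand), was not among the tested genes.

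The spread between the transgenic samples was set beside that of all tested genes. With 0.5 CPM added, replicate 1 over replicate 2 was 13.0 for *Olfm4*, 2.67 for *Cftr*, 2.45 for *Sox9* and 1.90 for *Aqp5*. Gaps as large in either direction were found in 0.487%, 4.28%, 5% and 8.56% of tested genes. For *Dmbt1* the ratio was 1.47, for *Cd44* 1.34, for *Wfdc2* 1.22, for *Clu* 1.06 and for *Mal2* 1.03. The median gap over all tested genes was 1.15 times. In the WT pair *Cftr* had the largest gap of the 9, with replicate 2 higher (a ratio of 0.646), and 9.83% of genes differed as much. Without transgenic replicate 2, 7 of the 9 genes were called higher, all but *Cftr* and *Mal2*, beside 5.82% of all tested genes called higher and 7.69% lower. Without replicate 1, 3 were called higher and *Olfm4* lower, beside 4.2% and 4.48% of all tested genes.

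Per kilobase of exon (GENCODE M21, an annotation that may differ from the one used for counting), the order of levels in WT was *Clu* (527 normalized CPM per kilobase, mean of 2), *Dmbt1* (107), *Mal2* (72.2), *Aqp5* (45.0), *Sox9* (29.3), *Cftr* (28.9), *Cd44* (27.3), *Wfdc2* (25.8) and *Olfm4* (13.97). The *Sox9*, *Cftr*, *Cd44* and *Wfdc2* levels overlapped between neighbours in this order, and the others did not. In transgenic mice *Wfdc2* moved from the eighth place to the fourth, with 73.0 and 59.6 per kilobase in the samples, but *Aqp5* in the fifth place had 85.9 and 45.1 and overlapped with it. *Clu* and *Olfm4* remained the first and the last, with transgenic means of 1287 and 19.4.

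SPEM is defined beside the loss of parietal and chief cells and the gain of neck-type mucus, and these genes were read in the same fit. Parietal cell genes were lower for 13 of 13 members, with a median log2 fold change of -3.86, and their summed level went from 13060 and 13287 normalized CPM in WT to 569 and 609 in transgenic mice. The proton pump subunits *Atp4a* (-5.59) and *Atp4b* (-5.82), the potassium channel subunit *Kcne2* (-5.36) and the histamine receptor *Hrh2* (-5.26) fell most. The summed parietal level was close in the transgenic samples, while *Hrh2* was at 0.41 and 1.34 normalized CPM. Since the *Atp4b* promoter drives Cre, the transcript that marks the targeted cells was itself low. Chief cell genes were lower for 4 of 6, *Chia1* (-8.81), *Pgc* (-6.00), *Gif* (-4.44) and *Bhlha15* (-2.23), while *Pga5* was at 0.02 (adjusted p = 0.975 from edgeR). Surface mucous genes were lower for 5 of 6, including the mucin *Muc5ac* (-2.46), *Psca* (-2.07), *Gkn2* (-1.88), *Gkn1* (-1.73) and *Tff1* (-1.23).

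Of 5 mucous neck genes all but *B4galnt3* were higher in transgenic replicate 1 than in both WT samples and not in replicate 2, as *Sox9*, *Cftr* and *Aqp5* were. *Tff2*, the peptide that gives SPEM its name, had 5526 and 6472 normalized CPM in WT, 12341 in transgenic replicate 1 and 5000 in replicate 2 (log2 fold change 0.53, adjusted p = 0.472 from edgeR). The gland mucin *Muc6* had 4337 and 5723 in WT, 7373 and 3667 in transgenic mice (0.13, edgeR adjusted p = 0.837). *B4galnt3* was the only neck gene called, and it fell by 2.33 on the log2 scale, with both transgenic samples below WT. Without transgenic replicate 2, 2 neck genes were called higher. *Sox9* stood at 2.09% and 1.96% of the level of *Tff2* in WT and at 1.98% and 1.99% in transgenic mice. Its ratio to *Tff2* thus varied 1.07-fold over the 4 samples, and 0.0113% of other tested genes had a ratio as even. *Aqp5* (1.30-fold) and *Cftr* (1.32-fold) also kept a near even ratio to *Tff2*, which 0.108% and 0.130% of genes matched. Of the other neck genes *Gkn3* varied 1.25-fold, *A4gnt* 1.35-fold, *Muc6* 1.48-fold and *B4galnt3* 10.9-fold against *Tff2*. *Cd44* varied 1.84-fold against *Tff2*, *Mal2* 2.40-fold, *Clu* 3.07-fold, *Wfdc2* 3.17-fold, *Dmbt1* 3.39-fold and *Olfm4* 5.59-fold. *Tff2* was chosen for these ratios after the values had been seen, so they are a description and no test was made.

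**Figure D4:**
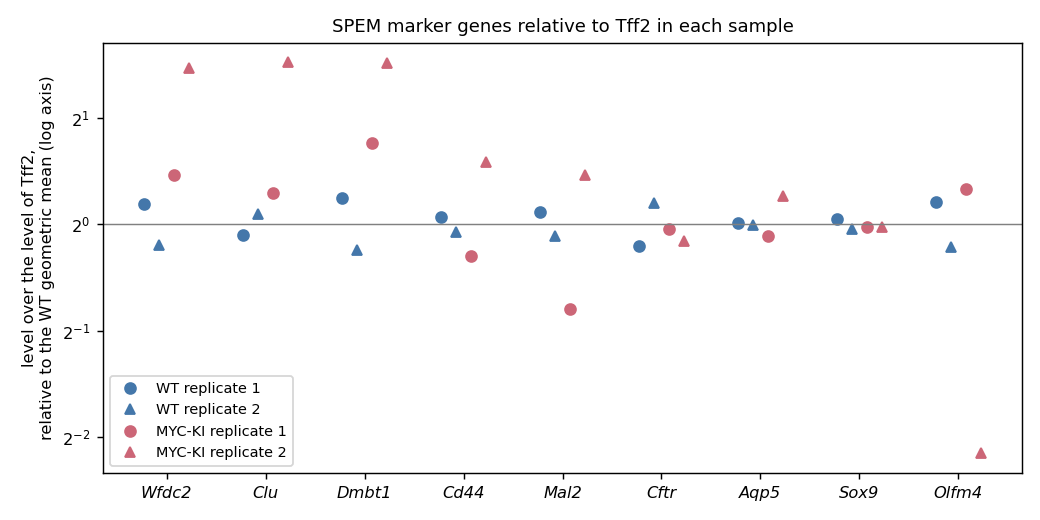
Level of each SPEM marker gene over the level of *Tff2*, relative to the geometric mean of the WT samples (y axis, log scale), in each of the 4 samples. *Sox9*, *Aqp5* and *Cftr* stay close to 1 in all samples, and *Wfdc2*, *Clu* and *Dmbt1* lie highest in transgenic replicate 2.

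Among 12 other genes reported with SPEM, 3 rose and none fell, and 1 was called lower without transgenic replicate 1. These were *Pigr* (log2 fold change 1.72), the carrier of secretory immunoglobulin, the membrane mucin *Muc4* (1.61) and the glutathione peroxidase *Gpx2* (0.94), at edgeR adjusted p-values of 0.0377, 0.0308 and 0.0198. *Glipr1* was at 0.06 (edgeR adjusted p = 0.899). Of 17 genes for the signals of metaplasia and for the return of mature cells to the cell cycle, 15 were tested, 2 rose and 2 fell (8 at an unadjusted p under 0.05, and 4 higher and 2 lower by DESeq2). Counts at an unadjusted p, here and for the lists that follow, stand beside 34.1% of all tested genes (6024 of 17643) at that level. The EGF receptor ligands *Areg* (1.84) and *Hbegf* (1.24) rose, while *Egf* (-2.86) and the alarmin *Il33* (-0.71) fell. The receptor of *Il33*, *Il1rl1*, was at 0.99 (edgeR adjusted p = 0.0677). *Il4* and *Il13* did not pass the filter.

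**Figure D5:**
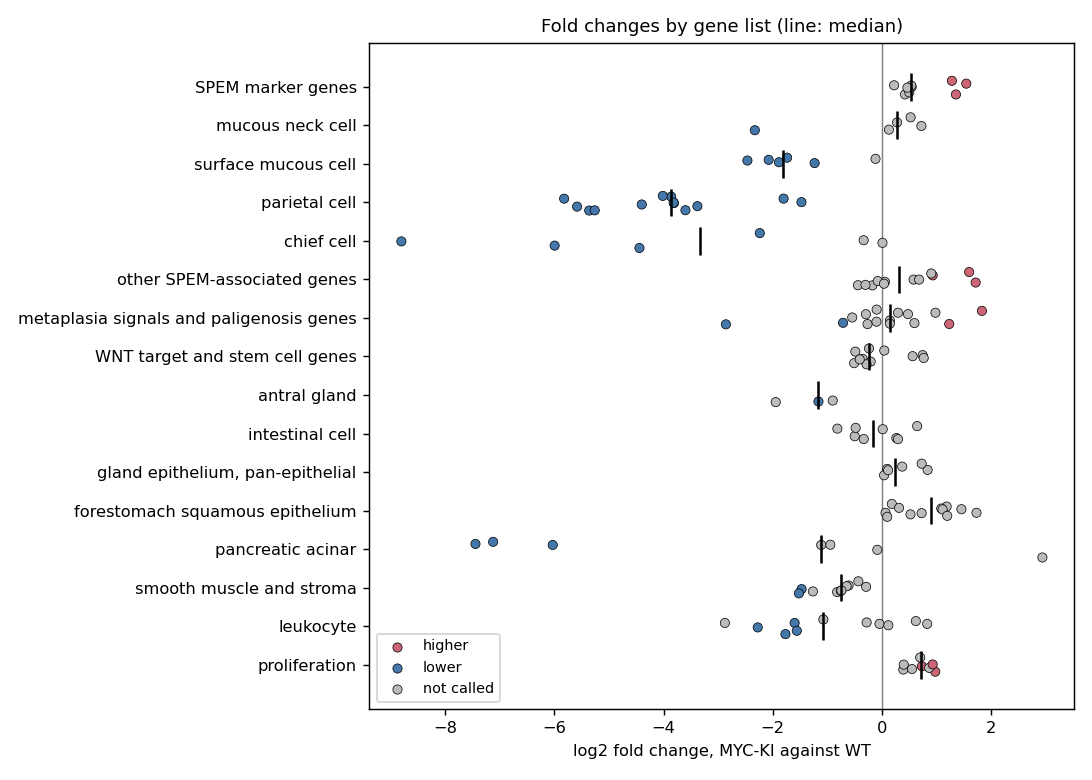
Log2 fold changes of MYC-KI against WT (x axis) for the tested genes of each list (rows), with called genes in color and the list's median as a line. The SPEM marker genes lie above 0, and the 13 parietal cell genes all lie at -1.47 or lower.

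Genes of other tissues of the stomach and gut also differed between samples. Intestinal genes summed to 215 and 112 normalized CPM in WT and to 204 and 37.5 in transgenic mice, with none of 8 called by edgeR or DESeq2 or at an unadjusted p under 0.05, and *Muc2* at -0.49 and *Cdx1* at 0.02 on the log2 scale. Without transgenic replicate 1, 1 intestinal gene was called lower, and without replicate 2, 1 was called higher. Squamous genes of the forestomach summed to 3707 and 2253 in WT and to 1742 and 6536 in transgenic mice, with none of 12 called by edgeR (1 at an unadjusted p under 0.05, 1 by DESeq2, and 4 higher without transgenic replicate 1) and *Krt5* at 1.19 and *Krt14* at 1.46. Smooth muscle and stroma genes summed to 9454 and 6830 in WT and to 3003 and 6223 in transgenic mice, with *Col3a1* (-1.52) and *Col1a1* (-1.47) called lower of 10, *Acta2* at -0.82 and *Myh11* at -0.75. Transgenic replicate 2, which had the lower *Olfm4*, *Sox9*, *Cftr* and *Aqp5*, was thus low in intestinal and high in squamous genes. The part of these tissues in the values of *Olfm4*, *Sox9*, *Cftr* and *Aqp5* was not tested. Antral genes summed to 499 and 338 in WT and to 115 and 149.9 in transgenic mice, with *Nkx6-3* (-1.16) called lower of 3, *Gast* at -1.94 and *Pdx1* at -0.90. The antral genes called lower were 2 when either transgenic sample was left out and 2 by DESeq2.

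The summed gland epithelium genes differed little, at 7941 and 8674 normalized CPM in WT and 8952 and 9498 in transgenic mice, with none of 6 called by edgeR (2 at an unadjusted p under 0.05, 1 by DESeq2, and 2 higher without transgenic replicate 2) and *Epcam* at 0.84 and *Cdh1* at 0.10. Leukocyte genes, which matter for *Cd44*, summed to 251 and 269 in WT and 106 and 91.6 in transgenic mice. Of 12, 11 were tested and 4 fell, *Adgre1* (-2.27), *Itgam* (-1.76), *Lyz2* (-1.60) and *Csf1r* (-1.56), while *Ptprc* was at -0.04 and *Cd3e* at 0.12. Proliferation genes rose for 3 of 8, *Ccnb1* (0.98), *Aurkb* (0.94) and *Ccna2* (0.74), with *Mki67* at 0.40 and *Top2a* at 0.56. All 8 had an unadjusted p under 0.05, beside the 34.1% of all tested genes, but 0 were called without transgenic replicate 1, against 5 without replicate 2, 5 by DESeq2 and 8 with library size. WNT target and stem cell genes, a set near *Sox9*, *Cd44* and *Olfm4*, were called for 0 of 11 by edgeR (2 at an unadjusted p under 0.05, a smaller share than the 34.1% of all tested genes, 1 by DESeq2, and 1 higher without transgenic replicate 2), with *Lgr5* at -0.48 and *Lgr4* at -0.35. Pancreatic acinar genes, of interest because ducts of the pancreas express *Cftr*, *Sox9* and *Dmbt1*, summed to 183 and 145 in WT and 19.3 and 15.8 in transgenic mice. Of 12, 7 were tested and 3 fell, *Clps* (-7.13), *Cela2a*, at least 7.98-fold lower against a floor of 3 counts per library, and *Amy2b*, which had 34 and 32 counts in the WT samples against 1 and 0. Of the 7, 6 had an unadjusted p under 0.05 and DESeq2 called 5 lower, whereas edgeR called 2 lower without transgenic replicate 1 and 1 without replicate 2. *Ctrl*, among those 6, went the other way, at 2.95 on the log2 scale, with 3 and 1 counts in WT against 25 and 14 in transgenic mice. *Cpa1* was 1 of 2 list members at 0 in every sample. The part of leukocytes, dividing cells and pancreatic tissue in the values of the SPEM markers was not tested.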

How the data were processed

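The authors deposited 1 table of raw read counts for 46095 mouse gene symbols, with 1 column per sample and no normalization. The submitters' processing notes name HISAT2 and mm10, and the counting tool, annotation and strand setting are not given in the sources used here. Reads of overlapping or antisense genes may therefore not be separated. Genotypes and replicate numbers came from the labels. The re-sorting of the transgenic columns uses names only.

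Counts were tested in R 4.3.3 with edgeR 4.0.16 (filterByExpr by genotype, TMM factors, a quasi-likelihood fit and F test with genotype as the only term), and p-values were adjusted by Benjamini-Hochberg over all tested genes. Values are TMM-normalized CPM, and a standard error is the absolute log2 fold change over the square root of F. Alternatives were DESeq2 1.42.0, other scalings, filters and fold thresholds, leaving out each sample, the replicate block and the deposited order. Both tools were tested on simulated data beforehand. Totals of 30260305 to 41463647 counts and a floor of 3 counts limit rare transcripts, and these cover counting error only. Positions and exon lengths are from GENCODE M21 (GRCm38, the assembly of mm10).

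The 9 genes and 15 context lists (141 genes) were chosen with earlier results of these data known. In each list the text names up to 4 called genes with the largest changes and the first 2 genes. *Il4* and *Il13*, which did not pass the filter, are named as well. The values of 1 gene that this rule names are left out here. *Gkn3*, *A4gnt*, *Cdx2*, *Prom1*, *Fgfr2*, *Ctrl* and the genes beside deposited counts were named after their values were seen.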

Additional observations from a re-analysis of the deposited data

How the results depend on the processing

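Of 90 log2 fold changes of the 9 SPEM markers in other fits of the re-sorted table, 72 kept their direction and their status as called or not called. Of the rest, 9 were no longer called, 5 became called and 4 turned sign. edgeR called 1892 genes, 996 higher and 896 lower. The count was 3011 (2272 higher) with library size, 3234 (1502 higher and 1732 lower) with DESeq2, 1113 (464 higher) at an absolute log2 fold change above 1, and 18580 (9422 higher and 9158 lower) in the deposited order. With library size all fold changes shift upward with the median of all genes, and a higher fold threshold can only remove genes. For the count with DESeq2 the cause was not tested.

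In the deposited order 0 of the 9 genes were called higher and 9 lower. Their fitted log2 fold changes were -7.53 for *Cd44*, -6.10 for *Wfdc2*, -9.98 for *Clu*, -15.90 for *Cftr*, -17.66 for *Dmbt1*, -10.68 for *Aqp5*, -3.49 for *Sox9*, -1.78 for *Mal2* and -13.46 for *Olfm4*, and *Myc* was at 2.38 against -0.35 after re-sorting. Values against 0 counts depend on the prior count of the fit and are no bound.

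Leaving out 1 sample gave 0 to 2470 called genes, 0 to 1064 higher and 0 to 1406 lower, and 0 to 7 of the 9 markers, 0 to 7 higher and 0 to 1 lower. Without WT replicate 1 or WT replicate 2 no gene was called, and the 7 are without transgenic replicate 2, where 0 markers were called lower. *Cftr* ranged from -0.45 to 0.97, *Sox9* from -0.28 to 1.01 and *Olfm4* from -2.41 to 1.37, the lowest without transgenic replicate 1 and the highest without transgenic replicate 2. The cause was not tested.

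With the replicate number as a block, edgeR called 114 genes (27 higher and 87 lower) and 0 of the 9 markers, at adjusted p-values of 0.0516 for *Wfdc2*, 0.0541 for *Dmbt1* and 0.0701 for *Clu*, and *Olfm4* was at -0.48. At an unadjusted p under 0.05 with the fold threshold, 3518 genes and 3 markers passed under the block. Of the surface mucous, other SPEM-associated, metaplasia signal and proliferation lists, 0 genes were called under it. Parietal cell genes called were 11 of 13, and chief cell genes 3 of 6. The differences between replicates 1 and 2 in WT and transgenic mice had an r of 0.06 over 17643 genes. Nothing in the labels ties the numbers to a shared litter or day, so whether they pair the samples is not known.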

Other observations

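*Olfm4* was set beside *Cdx2*, the intestinal transcription factor, after the values had been seen. The level of *Olfm4* was 4.32 and 3.73 times that of *Cdx2* in WT and 4.82 and 2.97 times in transgenic mice, a 1.62-fold range over the 4 samples, while its ratio to *Tff2* ranged 5.59-fold. *Prom1*, a gland stem cell gene of the WNT list, was at 0.77 on the log2 scale with an edgeR adjusted p of 0.0559.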
